A study of Mus musculus with 81 samples.

Results

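The 9 genes described here are targets of p53 in the mouse, namely Cdkn1a, Mdm2, Ccng1, Perp, Zmat3, Trp53inp1, Phlda3, Eda2r and Aen. They were taken by symbol from the 54079 genes that the count tables of all libraries share. The set was chosen in part on day 3 of one experiment, in which Perp was much higher in knockout than in wild-type (WT) cells and the other members were not, so the values of that day are given as a description with no test.

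The libraries were RNA-seq libraries of macrophages and macrophage precursors of C57BL/6 mice. WT cells were H3f3a fl/fl and H3f3b fl/fl, so that both genes of the histone variant H3.3 were floxed and intact, and they carried no cre. The conditional knockout (cKO, also H3.3cKO) had the same floxed alleles with LysM cre/cre, which places cre in both copies of Lyz2, the lysozyme gene expressed in granulocytes and macrophages. Bone marrow of mice 8 to 10 weeks old was grown in medium conditioned by L929 cells, which supplies macrophage colony-stimulating factor, and the resulting cells are called bone marrow-derived macrophages (BMDMs). BMDM libraries were made from total RNA depleted of ribosomal RNA. For peritoneal macrophages the labels name the same kit, and the methods name a low-input kit with amplification instead. There were 5 experiments. A time course held WT and cKO cells at days 3, 5 and 7 of culture. A second experiment held day 8 BMDMs, untreated or given interferon-gamma (IFNγ) for 12 h. The third held peritoneal macrophages, and the fourth held cultures given no antibody, a control antibody or an antibody to IFNAR1, the type I interferon receptor, with fresh antibody every 12 h until lysis on day 6. The last held 3 sets of WT and cKO BMDMs, called sets 1 to 3 here and told apart in the labels by the suffix of the library name and the spelling of the replicate in the title, with BMDMs of the double knockouts H3.3cKO:StingKO, H3.3cKO:MavsKO and H3.3cKO:Irf7KO, which are cKO cells that also lack Sting (Tmem173), Mavs or Irf7. Each group had 3 libraries, except the cKO groups of day 8, which had 2, and 79 of the 81 libraries entered a group. The replicates are labelled as biological without naming animals, so the p-values measure the spread between these samples.

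Library depth ran from 3614967 to 45581528 counts in genes, with a median of 18440728, and the shallowest library was cKO day 8 with IFNγ, replicate 1, in which 57.1% of reads were unmapped, against 12.6 to 18.3% in the other libraries of day 8. H3f3a was 33.6 to 93.8 CPM (counts per 1000000 counts in genes) in WT libraries and 1.21 to 15.3 CPM in cKO libraries, so the label held in every library for that gene. H3f3b was called lower in the cKO in the antibody experiment, at log2 fold changes of -2.95, -2.93 and -3.11 in its 3 arms, and in no other tested comparison of cKO with WT, where its log2 fold change was -0.41 to -0.16. Lyz2, which holds the cre, was at most 81.9 CPM in any cKO library and at least 4465 CPM in any WT library. The summed macrophage markers (7 genes) were 2894 to 11641 CPM in all groups, and T cell, dendritic cell and mesothelial markers summed to at most 13.7, 12.8 and 34.6 CPM. Other lists were higher in some groups. Granulocyte markers reached 4227 CPM in the cKO of day 3, and B cell markers 44.4 CPM. Stromal markers reached 339.9 CPM in cKO day 8 cells with IFNγ, and epithelial markers 130 CPM in WT peritoneal macrophages. In bulk RNA fewer cells of a type and less RNA per cell cannot be told apart.

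The transcription factor p53, encoded by Trp53, is held at a low level by Mdm2, a ubiquitin ligase that is itself a p53 target, and is released after DNA damage and other stress. It then binds paired copies of a short DNA element near its targets, whose products stop the cell cycle, repair DNA or start cell death. Cdkn1a is also expressed in macrophages without DNA damage, as the precursors mature and leave the cell cycle. Among the members, Mdm2 closes the feedback loop on p53, and Ccng1 encodes cyclin G1, which is linked to that loop. Cdkn1a encodes p21, the inhibitor of cyclin-dependent kinases. Perp is a membrane protein of desmosomes, Eda2r a receptor of the tumour necrosis factor receptor family and Aen a nuclease of apoptosis. Phlda3 is a repressor of Akt signalling, Zmat3 an RNA-binding zinc finger protein and Trp53inp1 a stress protein of the nucleus and of autophagy.

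RefSeq promoter sequences of GRCm38.p6 (mm10), each from 250 bases before to 50 bases after a transcription start, were at hand for 6 of the 9 members (8 promoters). They are shown because the members moved together in part of the data below, and because the p53 element can be read in them. The p53 element was searched as 10 letters on both strands, alone or as a pair with at most 13 letters between the copies. A single copy was present in at least 1 promoter of 4 members and in 8.36% of all 32851 promoters of this length. A pair in which every letter matched was present for 1 member, Cdkn1a, and in 0.0731% of all promoters, and a pair with at most 1 letter off for 2 members, Cdkn1a and Ccng1, and in 0.627% of all promoters. Promoters of Phlda3 and Eda2r had no copy in these windows. Capitals mark the copies and, for pairs with a letter off, both copies of the pair, each sequence is read in the direction of its gene, and a match is a description of letters, not of binding.

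Cdkn1a (chr17:29090729-29091028, plus strand): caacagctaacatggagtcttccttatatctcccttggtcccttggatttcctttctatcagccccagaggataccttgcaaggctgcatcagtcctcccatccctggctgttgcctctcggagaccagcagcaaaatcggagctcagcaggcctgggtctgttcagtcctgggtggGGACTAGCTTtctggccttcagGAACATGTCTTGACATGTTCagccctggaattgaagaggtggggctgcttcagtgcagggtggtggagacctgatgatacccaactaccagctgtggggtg
Ccng1 (chr11:40755237-40755536, minus strand): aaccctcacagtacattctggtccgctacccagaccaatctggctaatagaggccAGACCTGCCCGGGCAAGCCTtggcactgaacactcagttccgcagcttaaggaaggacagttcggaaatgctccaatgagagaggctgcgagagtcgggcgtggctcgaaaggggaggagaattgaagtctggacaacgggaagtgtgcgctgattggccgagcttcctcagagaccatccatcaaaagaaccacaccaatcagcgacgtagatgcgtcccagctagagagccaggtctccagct
Mdm2 (chr10:117710709-117711008, minus strand): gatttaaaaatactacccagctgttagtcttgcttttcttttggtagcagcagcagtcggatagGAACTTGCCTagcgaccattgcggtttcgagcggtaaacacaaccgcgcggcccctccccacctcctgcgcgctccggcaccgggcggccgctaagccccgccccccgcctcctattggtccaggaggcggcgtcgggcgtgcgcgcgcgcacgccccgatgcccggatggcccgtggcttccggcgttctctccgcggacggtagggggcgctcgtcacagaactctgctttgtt
Aen (chr7:78895677-78895976, plus strand): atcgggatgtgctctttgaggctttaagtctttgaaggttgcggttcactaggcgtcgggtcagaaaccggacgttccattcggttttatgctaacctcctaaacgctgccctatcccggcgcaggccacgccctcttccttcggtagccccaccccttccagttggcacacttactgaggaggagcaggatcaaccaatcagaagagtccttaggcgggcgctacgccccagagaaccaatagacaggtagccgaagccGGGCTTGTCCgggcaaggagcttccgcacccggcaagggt

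In the Cdkn1a promoter shown the copies began 73 and 51 bases before its start, and a copy with 1 letter off followed the second without a gap. The other Cdkn1a promoter at hand (chr17:29093519-29093818) had no copy. In Ccng1 the pair began 195 bases before the start with no gap. The copy in Mdm2 began 186 bases before the start of the promoter shown. That in Aen lay past the start of the promoter shown, and 121 bases before the start of the other Aen promoter at hand. Perp lies on the plus strand at chr10:18845020-18857073, Zmat3 on the minus strand at chr3:32334792-32366014 and Trp53inp1 on the plus strand at chr4:11156431-11174379. Phlda3 lies on the plus strand at chr1:135766119-135769136, and Eda2r on the minus strand at chrX:97333840-97377216. Of the 9 genes, Cdkn1a overlaps an annotated transcript of the other strand, AC167363.2, and the counts used did not separate strands, so reads of both could not be told apart. (All positions are mm10.)

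The members covered a wide range of expression levels. Levels of different genes were compared as CPM per kilobase of exon (mean ± SD, n = 3). In WT cells at day 7, Cdkn1a was highest at 53.5 ± 18.8, followed by Ccng1 at 41.6 ± 3.83 and Mdm2 at 25.2 ± 6.32 CPM per kilobase. Cdkn1a and Ccng1 lay within 1 SD of each other. Trp53inp1 at 10.4 ± 6.72, Phlda3 at 9.96 ± 0.624 and Zmat3 at 8.30 ± 2.30 CPM per kilobase came next, and neighbours in this trio also differed by less than 1 SD. Below them were Aen at 2.87 ± 0.964, Eda2r at 0.103 ± 0.0584 and Perp at 0.0177 ± 0.0306 CPM per kilobase, of which Perp rested on 2 counts in 3 libraries. In WT peritoneal macrophages Ccng1 came first, at 46 ± 5.54, then Cdkn1a at 35.7 ± 8.77 CPM per kilobase, and Zmat3, at 0.412 ± 0.0774, lay below Aen at 2.82 ± 0.802 CPM per kilobase. In WT cultures of the antibody experiment without antibody Cdkn1a, at 258.8 ± 57.2, Mdm2, at 186.8 ± 71.9, and Phlda3, at 166.0 ± 108.8 CPM per kilobase, led the order, and the ranges of 1 SD around these means overlapped. Experiments were scaled separately, so levels set side by side across them are descriptive.

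Perp, the desmosomal member, was close to absent from these macrophages. On day 3 its counts were 21, 23 and 15 in cKO libraries and 1, 1 and 0 in WT libraries, which is 1.32, 1.57 and 0.784 CPM against 0.0682, 0.0587 and 0 CPM. Every cKO library of that day was above every WT library. Summed over libraries, the 59 counts of the cKO and the 2 of the WT gave a depth-scaled ratio of 29.4, given as a description because the set was chosen on this day. By day 5 the cKO libraries held 3, 0 and 2 Perp counts and the 3 WT libraries 1 in all, and at day 7 the 3 cKO libraries held 1 and the 3 WT libraries 2. Perp entered the tests of the time course only through its counts in the cKO of day 3, the day used in choosing the set. No conclusion is therefore drawn from its tests of cKO against WT on day 5 (log2 fold change 1.95, SE 1.45, edgeR adjusted p = 0.592, 95% interval -1.03 to 4.93) or day 7 (log2 fold change -0.79, SE 1.69, edgeR adjusted p = 0.853, 95% interval -4.27 to 2.69). Those intervals are wide enough to hold large changes in either direction.

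Across the 79 libraries, Perp was at 0 in 34 and at 3 counts or fewer in 71. Of the 8 libraries above 3 counts, 3 were the cKO libraries of day 3, and no other library exceeded 8 counts. Peritoneal macrophages held 14 Perp counts in the WT and 14 in the cKO, at 0.562, 0.071 and 0.365 CPM and 0.3, 0.211 and 0.39 CPM, so the genotypes overlapped. In cKO day 8 cells with IFNγ, replicate 1 read 1.21 CPM of Perp, which was 2 counts in the shallowest library. The 3 untreated WT libraries of day 8 had 0 counts, which allows up to 0.1 CPM. Perp was too low to enter the test in any experiment other than the time course.

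**Figure D1:**
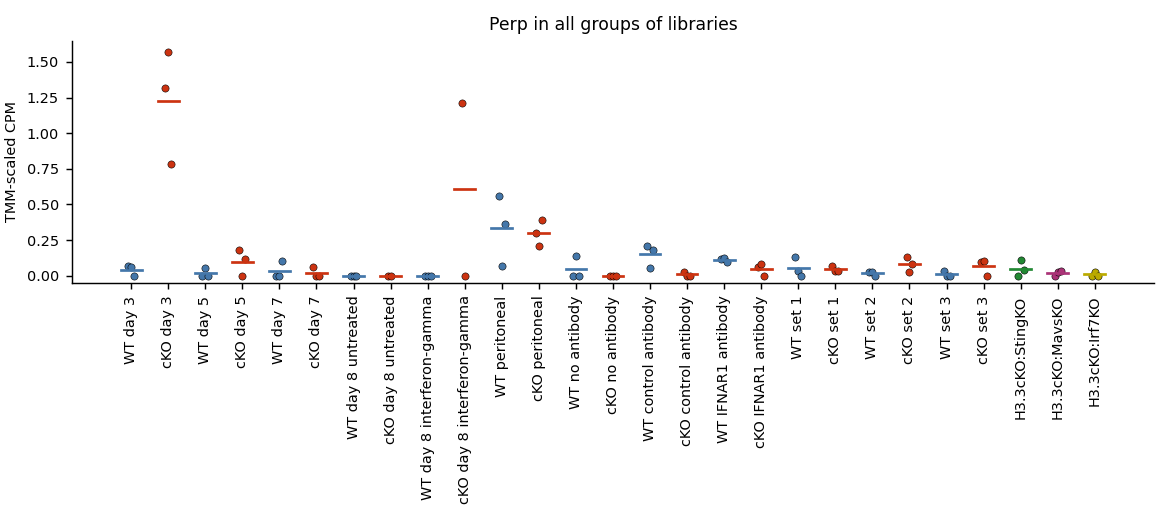
Perp level in CPM of each of the 79 libraries, by group, with 1 point per library and a bar at the group mean. The 3 cKO libraries of day 3 lie at 0.784 to 1.57 CPM, and most other libraries lie at or near 0.

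Markers of other cell types moved with Perp on day 3. The summed level of 8 epithelial and desmosomal markers was 7.64 to 9.68 CPM in the WT and 23 to 27.1 CPM in the cKO. Most of that was Jup, the desmosomal plakoglobin, at 7.09, 6.04 and 5.28 CPM in the WT and 21.1, 18.3 and 20.1 CPM in the cKO, while Cdh1 (E-cadherin) was at 2.11, 2.82 and 1.57 CPM in the WT and 4.53, 3.63 and 2.88 CPM in the cKO. Dsp, the desmosomal plaque protein desmoplakin, overlapped between the genotypes, and Krt19 and Pkp1 were at 0 in all 6 libraries. Markers of granulocytes were 1587 to 3045 CPM in the WT and 2738 to 4227 CPM in the cKO, with overlap, those of mast cells and basophils 0.682 to 1.63 and 4.99 to 6.54 CPM, and those of B cells 9.77 to 10.7 and 22.4 to 44.4 CPM. Mesothelial markers were 0 to 0.0682 CPM in the WT and 0.274 to 1.01 CPM in the cKO, also without overlap. Macrophage markers were 3041 to 4468 CPM in the WT and 2999 to 3559 CPM in the cKO, and stromal markers 8.52 to 45.7 and 26.7 to 70.4 CPM, both overlapping, as were T cell and dendritic cell markers. The part of these cells in the Perp level was not tested.

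The other 8 members did not share the pattern of Perp on day 3. Mdm2 was 530.1, 348 and 537 CPM in the WT and 312, 310.1 and 311 CPM in the cKO, and Zmat3 was 104, 80.3 and 95 CPM in the WT and 57.2, 66.6 and 50.4 CPM in the cKO. Both were lower in every cKO library, as were Ccng1 and Phlda3, at log2 fold changes of -0.60, -0.68, -0.36 and -0.63. Trp53inp1 lay higher in every cKO library, at 29.9, 28.5 and 45.4 CPM in the WT and 67.7, 60.3 and 54.5 CPM in the cKO, and so did the scarce Eda2r (1.16, 0.587 and 1.12 CPM in the WT and 1.57, 1.78 and 1.2 CPM in the cKO). Cdkn1a (439, 341 and 349 CPM in the WT and 369, 331 and 279.6 CPM in the cKO) and Aen (32.1, 32.2 and 35.5 CPM in the WT and 30.7, 32.2 and 28.9 CPM in the cKO) overlapped between the genotypes. With Perp, 3 members were above, 4 below and 2 overlapping, where 34.1% of the 15955 genes tested had groups that did not overlap. The median log2 fold change of the 9 members was -0.20, beside 0.04 for all genes. Trp53 itself overlapped, at 94 CPM in the WT and 93.5 CPM in the cKO on average.

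**Figure D2:**
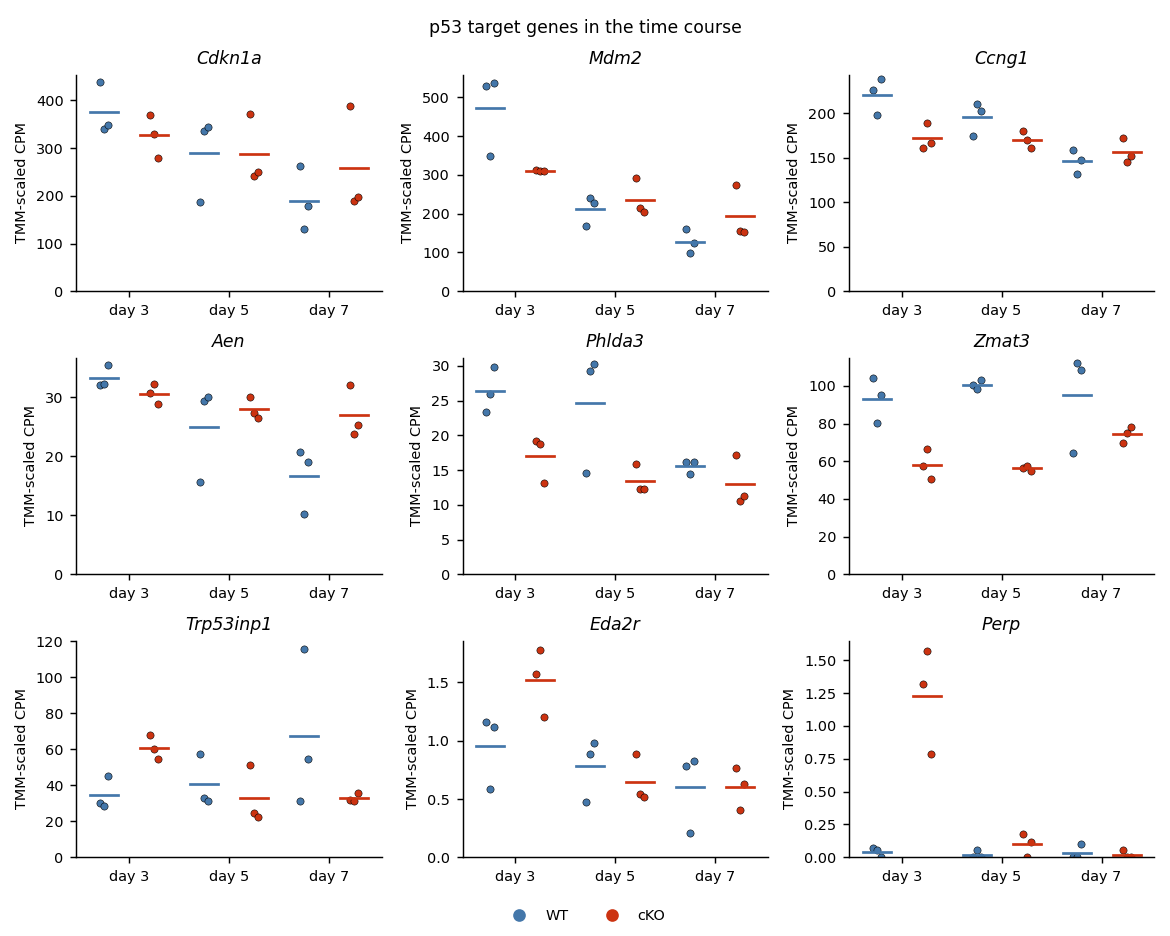
Level of the 9 members in CPM (vertical axis, 1 panel per gene, each with its own scale) at days 3, 5 and 7 of culture in WT and cKO cells, with a point per library and a bar at each group mean. Perp is high in the cKO on day 3, Zmat3 is lower in all cKO libraries on days 3 and 5, and WT day 7 replicate 2 stands out in Trp53inp1 at 115.6 CPM.

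On day 5, Zmat3 alone passed the test among the 9 members, in edgeR's quasi-likelihood test with Benjamini-Hochberg adjustment over all 15955 genes, of which 3.12% were called. Zmat3 read 100.2, 98.2 and 103 CPM in the WT and 56.3, 57.2 and 54.9 CPM in the cKO. The groups lay well apart, and the cKO mean was 55.8% of the WT mean (log2 fold change -0.84, SE 0.17, edgeR adjusted p = 0.0121, 95% interval -1.19 to -0.49). Without WT replicate 3 the adjusted p in edgeR was 0.0684. Phlda3, at 14.6, 29.3 and 30.2 CPM in the WT and 15.9, 12.2 and 12.3 CPM in the cKO, overlapped through WT replicate 1 and did not pass (log2 fold change -0.88, SE 0.25, edgeR adjusted p = 0.072). WT replicate 1 was also the lowest of the 3 WT libraries in Cdkn1a (188, 336 and 345 CPM), Mdm2 (169, 240.2 and 229 CPM) and Aen (15.6, 29.4 and 30.1 CPM). For Cdkn1a the 95% interval of the log2 fold change was -0.65 to 0.64, and for Mdm2 -0.37 to 0.67.

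On day 7, none of the 9 members was called by edgeR or DESeq2, where 1.82% of genes were called by edgeR, and 4 had an unadjusted p under 0.05. Aen was 20.7, 10.3 and 19 CPM in the WT and 32.1, 23.8 and 25.4 CPM in the cKO, and was the 1 member whose groups did not overlap (log2 fold change 0.69, SE 0.24, edgeR adjusted p = 0.152), beside 16.6% of all genes. Mdm2 was 162, 97.5 and 125 CPM in the WT and 273, 155 and 153 CPM in the cKO (log2 fold change 0.59, SE 0.24, edgeR adjusted p = 0.234), with replicate 1 the highest in both genotypes. Replicate 1 also held the highest level of Cdkn1a in each genotype, at 262, 129.5 and 179 CPM in the WT and 389, 190.2 and 197 CPM in the cKO. Zmat3 was 64.6, 112 and 108 CPM in the WT and 69.8, 75.2 and 78.3 CPM in the cKO (log2 fold change -0.35, SE 0.17, edgeR adjusted p = 0.301), and WT replicate 1 was below all 3 cKO libraries. Trp53inp1 was 31.4, 116 and 54.5 CPM in the WT and 31.8, 31.2 and 35.5 CPM in the cKO (log2 fold change -1.03, SE 0.39, edgeR adjusted p = 0.196), and its WT mean rested largely on replicate 2.

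Between days 5 and 7, no member was called in WT cells (0.150% of genes called, 4 members at an unadjusted p under 0.05) or in cKO cells (0.0501% called, 1 member) by edgeR, and DESeq2 called 1 member in the WT and 0 in the cKO. In the WT, Mdm2 was lower in every library of day 7 (log2 fold change -0.73, SE 0.25, edgeR adjusted p = 0.157), as was Ccng1 (log2 fold change -0.42, SE 0.11, edgeR adjusted p = 0.0955), 2 members beside 7.18% of all genes that were lower without overlap. In the cKO the 1 member was Zmat3, higher in every library of day 7 (log2 fold change 0.41, SE 0.17, edgeR adjusted p = 0.809), as were 6.12% of all genes. The difference of the genotype effect between these days was not called for any member, nor for any of the 15955 genes, of which 589 had an unadjusted p under 0.05 in edgeR.

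The wider p53 pathway moved in both directions in the time course. Of 31 further p53 targets, 30 were tested, and 3 rose and 2 fell on day 5, where 3.12% of all genes were called, and 2 rose and 2 fell on day 7, where 1.82% were. Pmaip1, which encodes the cell death protein Noxa, rose on both days, from 6.47 to 22.4 CPM on day 5 (log2 fold change 1.79, SE 0.30, edgeR adjusted p = 0.0052) and at a log2 fold change of 1.31 on day 7 (edgeR adjusted p = 0.0378). Ephx1, an epoxide hydrolase, fell on day 5 (log2 fold change -1.77, SE 0.40, edgeR adjusted p = 0.0227). Dram1, a lysosomal protein of autophagy, fell on both days, at log2 fold changes of -0.65 and -0.93 (edgeR adjusted p = 0.03 and 0.00627). Sesn1, a stress protein that restrains mTORC1, fell on day 7 (log2 fold change -1.50, SE 0.31, edgeR adjusted p = 0.0255), and Cdkn1c, a relative of Cdkn1a, rose on day 5 (log2 fold change 1.53, SE 0.39, edgeR adjusted p = 0.0418).

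Day 8 BMDMs showed no called difference between the genotypes. None of the 8 members tested (Perp was too low) was called in untreated cells, where edgeR called 0.658% of genes, and 1 had an unadjusted p under 0.05, while DESeq2 called 0. That member was Aen, at 16.7, 15.5 and 14.6 CPM in 3 WT libraries and 23.1 and 23.2 CPM in 2 cKO libraries (log2 fold change 0.57, SE 0.22, edgeR adjusted p = 0.641). Cdkn1a was 236, 121 and 208 CPM in the WT and 260.4 and 277 CPM in the cKO (log2 fold change 0.51, SE 0.23, edgeR adjusted p = 0.832), and Mdm2 was 97.8, 75.1 and 81 CPM in the WT and 105 and 102 CPM in the cKO. Aen, Cdkn1a, Mdm2 and Eda2r were higher and Trp53inp1 lower in both cKO libraries than in any WT library, 5 of 8 members, where 31.9% of all genes did not overlap with this number of libraries.

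Interferon-gamma, a cytokine that activates macrophages and changed 38.9% of genes in the WT and 33.9% in the cKO, moved some members up and others down. In the WT it raised Cdkn1a from 236, 121 and 208 CPM to 298, 325 and 330.4 CPM (log2 fold change 0.75, SE 0.21, edgeR adjusted p = 0.0176). Mdm2 rose from 97.8, 75.1 and 81 to 115, 117 and 108 CPM (log2 fold change 0.42, SE 0.14, edgeR adjusted p = 0.0431). In both genes every treated library was above every untreated library, but the call of Mdm2 was kept in 1 of the 6 fits that left out a library (that without untreated WT replicate 1), with an edgeR adjusted p of up to 0.196, and in 7 of 16 alternatives in all. Same-numbered WT libraries of day 8 deviated together, at correlations of 0.33 to 0.45, and with the replicate block Mdm2 was not called (edgeR adjusted p = 0.0784). The call of Cdkn1a was kept in 4 of those 6 fits, at 0.0531 without IFNγ replicate 2 and 0.055 without replicate 3, and with the block. Zmat3 fell in both genotypes, from 78.2, 55 and 64.9 to 44.9, 35.6 and 41.2 CPM in the WT (log2 fold change -0.70, SE 0.16, edgeR adjusted p = 0.00585) and from 73 and 71.2 to 32 and 36.6 CPM in the cKO (log2 fold change -1.07, SE 0.20, edgeR adjusted p = 0.00262). Aen fell in the cKO, from 23.1 and 23.2 to 6.64 and 12.2 CPM (log2 fold change -1.24, SE 0.25, edgeR adjusted p = 0.00435), and was 16.7, 15.5 and 14.6 and then 15, 14 and 13 CPM in the WT (log2 fold change -0.16, SE 0.20, edgeR adjusted p = 0.571). Without the library with 57.1% unmapped reads, Aen had a log2 fold change of -0.89 (edgeR adjusted p = 0.0023), with a single treated cKO library left, which the fit assumes to vary like the other groups. The test called 3 of 8 members in the WT and 2 of 8 in the cKO, no larger a share than over all genes (38.9% and 33.9%). When the 2 day 8 libraries with conflicting labels were placed by their titles, 0 members were called in either genotype, and when they were placed by their library names, 4 were called in the cKO. The interferon-induced gene Irf7 was 182.1 CPM in one of these libraries and 2015.4 CPM in the other. It was 200.7 to 256.9 CPM in untreated and 1635.5 to 2351.6 CPM in treated cKO libraries whose labels agree.

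The response of Aen to IFNγ differed between the genotypes by -1.08 on the log2 scale (unadjusted p = 0.00667, edgeR adjusted p = 0.405), and no member and none of the 13075 genes passed that test, 1205 of them having an unadjusted p under 0.05. Without cKO IFNγ replicate 2, Aen passed, with an edgeR adjusted p of 0.00298, which leaves a single treated cKO library that is also the shallowest. In that library Aen was 6.64 CPM, and Krt19 and Msln, markers of mesothelium, had 10 and 15 counts. Trp53 fell with IFNγ in both genotypes, from 61, 54.7 and 58.6 to 45.3, 41.2 and 41.2 CPM in the WT (log2 fold change -0.45, SE 0.13, edgeR adjusted p = 0.0201) and from 63.3 and 60.9 to 32.6 and 41.1 CPM in the cKO (log2 fold change -0.75, SE 0.16, edgeR adjusted p = 0.0059).

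In IFNγ-treated cells, cKO and WT did not differ past the threshold for any of the 8 members, where edgeR called 5.45% of genes, and 2 members had an unadjusted p under 0.05 while DESeq2 called 0. Ccng1 was 209, 158 and 182 CPM in the WT and 129.8 and 124 CPM in the cKO (log2 fold change -0.53, SE 0.18, edgeR adjusted p = 0.109), lower in both cKO libraries than in any WT library. Trp53inp1 was 50.4, 29.9 and 38.9 CPM in the WT and 18.7 and 31.1 CPM in the cKO (log2 fold change -0.65, SE 0.25, edgeR adjusted p = 0.142). Among other pathway genes of this comparison, Plk2, a polo-like kinase, and Sfn, the 14-3-3 sigma protein, were higher in the cKO (log2 fold changes of 1.70 and 1.44, edgeR adjusted p = 0.0165 and 0.025), and the kinase gene Atr was lower (log2 fold change -1.21, SE 0.16, edgeR adjusted p = 0.00508). Of the 30 further targets tested, 4 rose and 0 fell in the cKO with IFNγ, and none was called in untreated cells.

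Peritoneal macrophages, which mature in the body and not in culture, showed no called difference between the genotypes in the 7 members that could be tested, all but Perp and Eda2r. There edgeR called 1.06% of genes, 0 members had an unadjusted p under 0.05 and DESeq2 called 0. Mdm2 was the 1 member whose groups did not overlap, at 87.1, 91.6 and 81.6 CPM in the WT and 78.5, 71.5 and 75.9 CPM in the cKO (log2 fold change -0.20, SE 0.14, edgeR adjusted p = 0.751), beside 6.50% of all genes that were lower without overlap. Cdkn1a was 159.7, 97.8 and 123 CPM in the WT and 146, 96.1 and 98 CPM in the cKO, and the 95% interval of its log2 fold change was -0.69 to 0.38. For Ccng1 that interval was -0.18 to 0.53. None of the further p53 targets was called there.

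**Figure D3:**
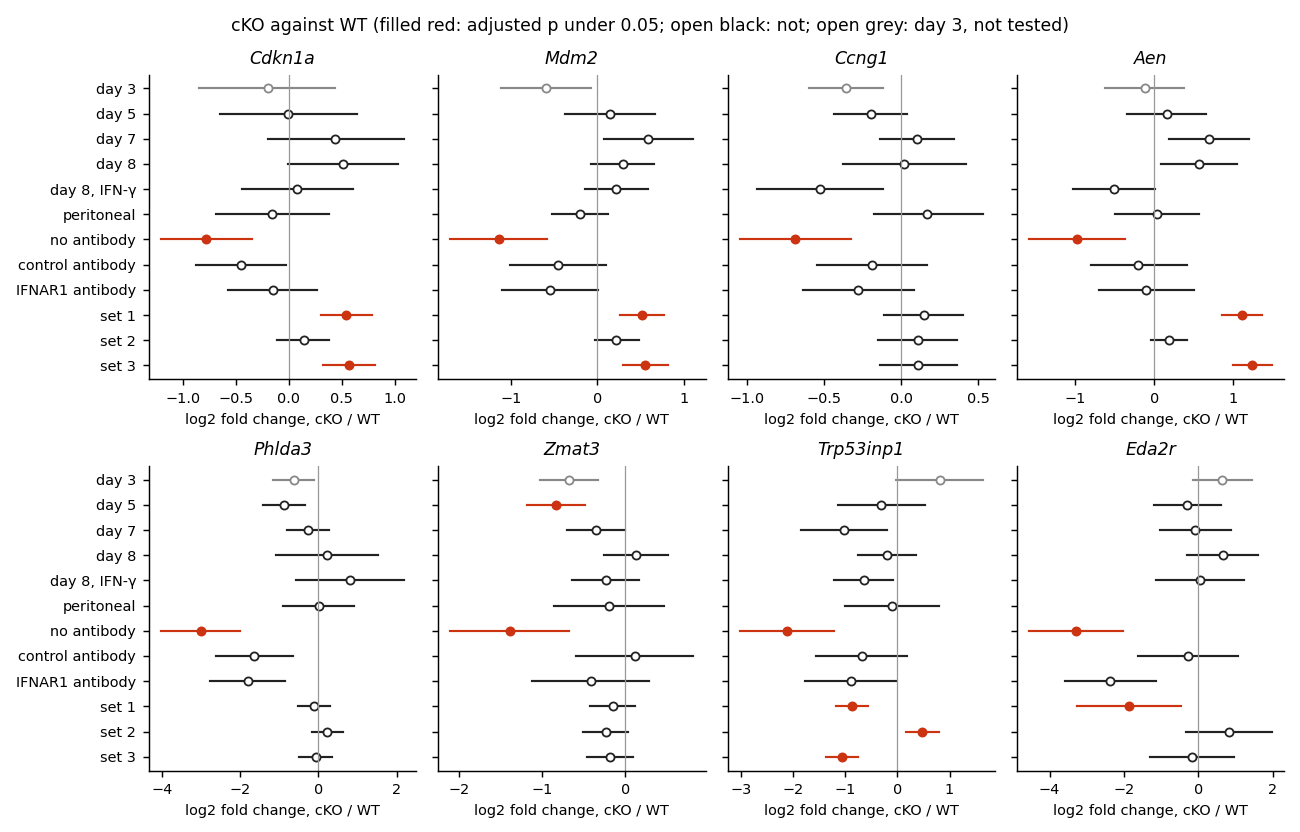
Log2 fold change of cKO over WT (horizontal axis, with 95% intervals) of the 8 members other than Perp in the 12 comparisons of the genotypes. Filled red points have an edgeR adjusted p under 0.05, open points do not, and grey points of day 3 were not tested. All 8 points are red and below 0 with no antibody, and Aen reaches 1.24 in BMDM set 3.

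The antibody experiment held the comparison with the most called members. In cultures that received no antibody, all 8 members tested were called lower in the cKO, and in each of them every cKO library lay below every WT library. Over all 17191 genes, 8.16% were called, 4.14% as lower, and 19.2% were lower without overlap. The median log2 fold change of the 8 members was -1.27, beside 0.00 for all genes.

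Phlda3, the Akt repressor, and Eda2r fell to the smallest share of the WT level. The level of Phlda3 was 93.5, 433 and 250.3 CPM in the WT and 29.1, 36.4 and 31 CPM in the cKO. The cKO mean was 12.4% of the WT mean (log2 fold change -3.01, SE 0.48, edgeR adjusted p = 0.0015). The receptor gene Eda2r was 9.45, 16.2 and 25.1 CPM in the WT and 1.07, 2.4 and 1.89 CPM in the cKO, or 10.6% of the WT mean (log2 fold change -3.28, SE 0.60, edgeR adjusted p = 0.00399). Trp53inp1 was 243, 729 and 503 CPM in the WT and 106, 109.6 and 123 CPM in the cKO, or 22.9% (log2 fold change -2.12, SE 0.43, edgeR adjusted p = 0.00772). These 3 members were called in each fit that left out 1 library of either group.

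The other 5 members were lower by smaller factors, and their calls were lost in most fits that left out a library. Mdm2, the p53 ligase, was 588, 1320 and 939.8 CPM in the WT and 421, 433 and 438 CPM in the cKO (log2 fold change -1.14, SE 0.26, edgeR adjusted p = 0.0158), and Zmat3 was 271, 607 and 465 CPM in the WT and 164, 181 and 166 CPM in the cKO (log2 fold change -1.39, SE 0.34, edgeR adjusted p = 0.0203). Cdkn1a was 700.3, 1101 and 957 CPM in the WT and 536, 572 and 499 CPM in the cKO (log2 fold change -0.78, SE 0.20, edgeR adjusted p = 0.0272). In each of the 3, the WT libraries differed more among themselves than the cKO libraries did, with replicate 2 the highest. Ccng1 (284, 412 and 339.5 CPM in the WT and 204, 223 and 216 CPM in the cKO) and Aen (33.6, 87.6 and 57.8 CPM in the WT and 29.4, 29.1 and 32.5 CPM in the cKO) had the same shape, at log2 fold changes of -0.69 and -0.98 (edgeR adjusted p = 0.0224 and 0.0463). Without WT replicate 2 only Phlda3, Trp53inp1 and Eda2r were called, 3 of 8. The other 5 members (Mdm2, Zmat3, Cdkn1a, Ccng1 and Aen) were called in 1 of the 6 fits that left out a library.

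Other targets of p53 were lower in the same cultures. Of the 30 further targets tested, 0 rose and 9 fell, with a median log2 fold change of -0.63. Over all genes of this comparison, 8.16% were called, 4.14% of them all as lower. Gdf15, a secreted stress cytokine, was 462, 2791 and 1354 CPM in the WT and 266, 229 and 267 CPM in the cKO (log2 fold change -2.60, SE 0.68, edgeR adjusted p = 0.0297), with WT replicate 2 again the highest. Ephx1 fell in all 3 arms, at log2 fold changes of -2.19, -1.51 and -1.68 with no, control and IFNAR1 antibody. Among p53 and its 11 regulators, 3 rose and 0 fell, including the kinase genes Atm (log2 fold change 0.50, SE 0.13, edgeR adjusted p = 0.0327) and Hipk2 (log2 fold change 0.67, SE 0.19, edgeR adjusted p = 0.0463). Trp53 was 50.8, 41.5 and 42.3 CPM in the WT and 61.2, 60.3 and 56.2 CPM in the cKO, higher in every cKO library without passing the test (log2 fold change 0.40, SE 0.16, edgeR adjusted p = 0.124). None of 12 genes that p21 lowers through the DREAM complex, a repressor of cell cycle genes, was called. Epithelial and desmosomal markers summed to 28 to 29.6 CPM in the WT and 13.1 to 17.8 CPM in the cKO in these cultures, and their part in the result was not tested.

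**Figure D4:**
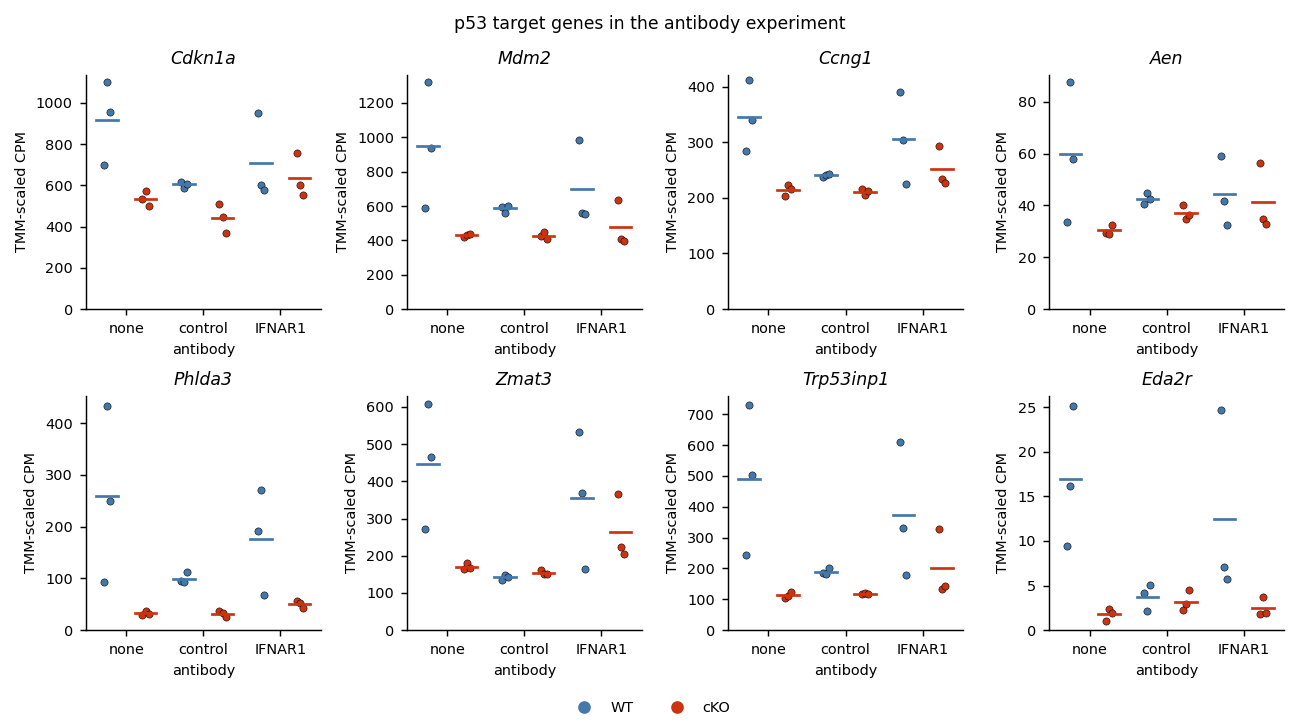
Level of 8 members in CPM (vertical axis, 1 panel per gene with its own scale) in WT and cKO cultures given no antibody, a control antibody or an IFNAR1 antibody, with a point per library and a bar at each group mean. WT libraries without antibody are above the cKO libraries in all 8 panels, and with control antibody the group means lie closer together in all 8 panels.

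With control antibody, none of the 8 members was called, where edgeR called 5.11% of genes, while 2 had an unadjusted p under 0.05 and DESeq2 called 1. Phlda3 was closest, at 94.6, 92.3 and 112 CPM in the WT and 37, 33.1 and 25.5 CPM in the cKO (log2 fold change -1.64, SE 0.46, edgeR adjusted p = 0.0505). Trp53inp1 was 185, 182 and 202 CPM in the WT and 116, 119 and 117 CPM in the cKO (log2 fold change -0.69, SE 0.41, edgeR adjusted p = 0.482), and Mdm2 was 597, 561 and 602 CPM in the WT and 427, 449 and 405 CPM in the cKO (log2 fold change -0.46, SE 0.26, edgeR adjusted p = 0.452). In both, the gap between the groups was wider than the range within either. In 6 members every cKO library was below every WT library, Zmat3 was above and Eda2r overlapped, and 18.5% of all genes were lower without overlap. A fit of these 6 libraries alone called 5 members.

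With the IFNAR1 antibody, no member was called by edgeR, which called 0.698% of genes, although 3 had an unadjusted p under 0.05 and DESeq2 called 2. Phlda3 was 192, 269.9 and 67.7 CPM in the WT and 55.4, 53 and 42 CPM in the cKO (log2 fold change -1.81, SE 0.45, edgeR adjusted p = 0.0971). Eda2r was 24.7, 7.09 and 5.69 CPM in the WT and 1.78, 3.7 and 1.91 CPM in the cKO (log2 fold change -2.37, SE 0.58, edgeR adjusted p = 0.0851). Both were lower in every cKO library, as were 4.47% of all genes. The libraries of these groups were uneven, and replicate 1 held the highest level of Cdkn1a in each genotype (949, 603 and 576 CPM in the WT and 759, 603 and 552 CPM in the cKO). The same was true of Mdm2 (987, 562 and 552 CPM in the WT and 633, 408 and 398 CPM in the cKO), Zmat3 (532, 368 and 165 CPM in the WT and 367, 223 and 204 CPM in the cKO) and Trp53inp1 (612, 333 and 179 CPM in the WT and 327, 134 and 144 CPM in the cKO).

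The genotype effect was tested between arms as well. No antibody against control antibody gave a difference of -3.00 (SE 0.87, edgeR adjusted p = 0.557) on the log2 scale for Eda2r and of -1.51 (SE 0.47, edgeR adjusted p = 0.643) for Zmat3. No member and none of 17191 genes passed, although 4 members and 1259 genes had an unadjusted p under 0.05 in edgeR. That the 8 members were called in one arm and none in the other is therefore not a shown difference between the arms. IFNAR1 against control antibody likewise gave no called member and no called gene, with 1 member (Eda2r) and 991 genes at an unadjusted p under 0.05.

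Within a genotype, the arms differed in the WT. The comparisons that follow share libraries with each other and with those above. From no antibody to control antibody, WT cells had lower Zmat3 (log2 fold change -1.65, SE 0.34, edgeR adjusted p = 0.0111), Trp53inp1 (log2 fold change -1.37, SE 0.42, edgeR adjusted p = 0.0487) and Eda2r (log2 fold change -2.21, SE 0.55, edgeR adjusted p = 0.0228), 3 of 8 members where 9.73% of genes were called. Same-numbered WT libraries of these arms deviated together, at correlations of 0.15 to 0.28, and with the replicate block within genotype none of the 3 was called (edgeR adjusted p of 0.0746 for Zmat3, 0.141 for Trp53inp1 and 0.0866 for Eda2r). Without 1 library the count ranged from 0 (without control antibody replicate 2 or 3) to 8 (without no antibody replicate 1), and was 1 without any of the other 3. Zmat3 was kept in 4 of these 6 fits, and Trp53inp1 and Eda2r in 1 each, with edgeR adjusted p of up to 0.225 and 0.124. From control to IFNAR1 antibody, WT cells had higher Zmat3 (log2 fold change 1.32, SE 0.34, edgeR adjusted p = 0.024) and Eda2r (log2 fold change 1.79, SE 0.55, edgeR adjusted p = 0.0467), 2 of 8 where 11.2% of genes were called. Without WT IFNAR1 replicate 1 these last 2 were at an edgeR adjusted p of 0.131 and 0.303, and of 6 fits without a library Zmat3 was kept in 1 and Eda2r in 2. In cKO cells edgeR called no member in either comparison, where 2.09% and 4.68% of genes were called, with 0 and 2 members at an unadjusted p under 0.05, and DESeq2 called 0 in both.

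Cell cycle genes differed between the arms in both genotypes. Of the 12 genes that p21 lowers through DREAM, 11 in the WT and 9 in the cKO were higher with the IFNAR1 antibody than with the control antibody, where 11.2% and 4.68% of all genes were called. With the control antibody 9 in the WT and 1 in the cKO were lower than without antibody, where 9.73% and 2.09% were called. The mitotic kinase Cdk1, chosen after its values were seen, was 46.2, 31.2 and 32.2 CPM in the WT without antibody, 20.7, 8.38 and 10.6 CPM with control antibody and 71.3, 87.4 and 37.3 CPM with IFNAR1 antibody. In the cKO it was 40.6, 42.1 and 28 CPM without antibody, 16.9, 7.77 and 9.54 CPM with control antibody and 53.8, 30.3 and 21.4 CPM with IFNAR1 antibody. Stromal markers with control antibody were 12.5 to 219 CPM in the WT and 156 to 290.3 CPM in the cKO. Irf7, an interferon-induced gene, averaged 3.90 CPM in the WT and 80.8 CPM in the cKO with control antibody, and 3.09 and 28.4 CPM with the IFNAR1 antibody.

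The 3 sets of WT and cKO BMDMs had called differences in both directions. In sets 1 and 3 Cdkn1a, Mdm2 and Aen rose and Trp53inp1 fell in the cKO, and in set 2 Trp53inp1 rose and no other member was called. Whether sets 1 and 3 are independent was not tested, so their like results may not count as separate ones. Perp was too low to test. The test called 5 of 8 members in set 1 (34.6% of 18083 genes), 1 of 8 in set 2 (21.9%) and 4 of 8 in set 3 (35.9%).

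Aen, the nuclease, had the largest rise of the 8 members in sets 1 and 3. It was 12.2, 11.3 and 9.81 CPM in the WT and 22.7, 23.4 and 26.1 CPM in the cKO of set 1 (log2 fold change 1.11, SE 0.12, edgeR adjusted p = 1.82e-07), and 8.31, 11.7 and 9.64 CPM in the WT and 21.1, 24 and 24.7 CPM in the cKO in set 3 (log2 fold change 1.24, SE 0.12, edgeR adjusted p = 3.25e-08). In both sets the cKO libraries lay at about the same level as in set 2, and the WT libraries lay lower. In set 2 it was 19.1, 24.7 and 20.6 CPM in the WT and 25.4, 22.7 and 25.3 CPM in the cKO, with overlap (log2 fold change 0.19, SE 0.11, edgeR adjusted p = 0.265). The effect in set 2 was smaller, and differed from that in set 1 by -0.92 on the log2 scale (edgeR adjusted p = 0.000352) and from that in set 3 by -1.06 (edgeR adjusted p = 7.36e-05).

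Cdkn1a was 187, 211 and 153 CPM in the WT and 249.6, 256 and 298 CPM in the cKO of set 1 (log2 fold change 0.54, SE 0.12, edgeR adjusted p = 0.000919), and 168, 190.1 and 142 CPM in the WT and 220.2, 257 and 263 CPM in the cKO in set 3 (log2 fold change 0.57, SE 0.12, edgeR adjusted p = 0.000596). In set 2 it was 241, 248 and 246 CPM in the WT and 284, 259 and 265 CPM in the cKO, higher in every cKO library without passing the test (log2 fold change 0.14, SE 0.12, edgeR adjusted p = 0.467). The difference between sets 2 and 1 was -0.41 (SE 0.17, edgeR adjusted p = 0.0898), so a smaller effect in set 2 was not shown for Cdkn1a. Mdm2 was 132, 106 and 84.1 CPM in the WT and 157, 149.6 and 154 CPM in the cKO in set 1 (log2 fold change 0.51, SE 0.12, edgeR adjusted p = 0.00215), 164, 179 and 182 CPM in the WT and 217, 189 and 206 CPM in the cKO in set 2 (log2 fold change 0.22, SE 0.12, edgeR adjusted p = 0.216) and 112, 116 and 102 CPM in the WT and 159, 161 and 163 CPM in the cKO in set 3 (log2 fold change 0.55, SE 0.12, edgeR adjusted p = 0.00102). For Mdm2 every cKO library was above every WT library of its set in all 3 sets, although set 2 was not called. The share of all genes separated in this way in the sets is not given here, so the separation is a description only.

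Trp53inp1 went both ways. It fell in set 1, from 79, 77.1 and 56.3 to 37.7, 38.6 and 39.6 CPM (log2 fold change -0.88, SE 0.15, edgeR adjusted p = 6.2e-05), and in set 3, from 89.5, 74.7 and 61.4 to 32.3, 35.2 and 40 CPM (log2 fold change -1.07, SE 0.15, edgeR adjusted p = 4.69e-06). It rose in set 2, from 23.4, 24.3 and 20.9 to 35.6, 27.6 and 32.7 CPM (log2 fold change 0.48, SE 0.15, edgeR adjusted p = 0.0223), a call that was kept in 2 of the 6 fits that left out a library, with edgeR adjusted p of up to 0.111. The genotype effect differed between sets 2 and 1 for 3 of 8 members, more positive in set 2 for 2 (8.29% of genes) and more negative for 1 (11.7%), and between sets 2 and 3 for 2, more positive for 1 (9.46%) and more negative for 1 (10.8%). For Trp53inp1, the opposite directions differed from each other by 1.36 (SE 0.21, edgeR adjusted p = 8.49e-05) between sets 2 and 1 and by 1.55 (SE 0.21, edgeR adjusted p = 1.58e-05) between sets 2 and 3. Over the 3 sets, the WT levels of Trp53inp1 ranged more widely than its cKO levels. Trp53 rose in the cKO of sets 1 and 3, from 59.2, 74.9 and 68.6 to 105, 98.4 and 104 CPM (log2 fold change 0.60, SE 0.08, edgeR adjusted p = 3.78e-06) and from 50.7, 59.5 and 57.5 to 81.7, 91.3 and 82.3 CPM (log2 fold change 0.61, SE 0.08, edgeR adjusted p = 3.32e-06), and was 94.7, 88.9 and 93.4 CPM in the WT and 108, 110.0 and 102 CPM in the cKO in set 2 (log2 fold change 0.21, SE 0.08, edgeR adjusted p = 0.0722).

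**Figure D5:**
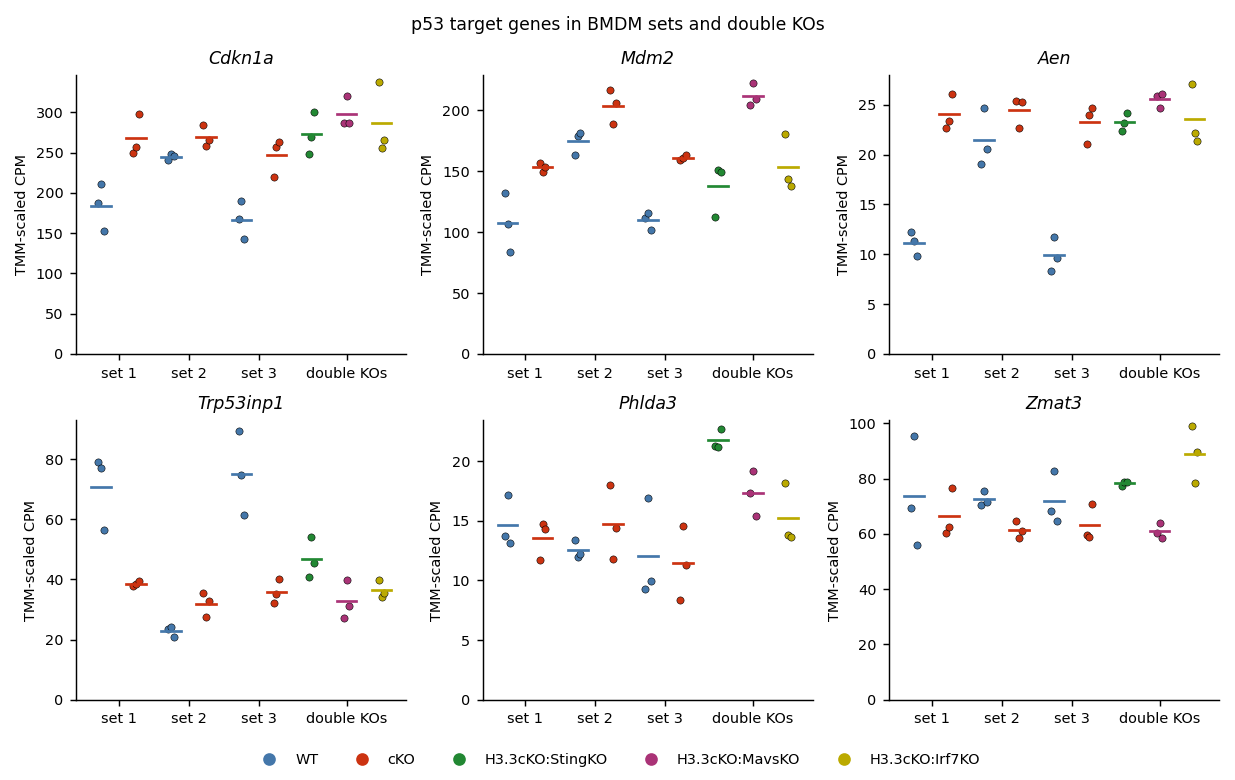
Level of 6 members in CPM (vertical axis, 1 panel per gene with its own scale) in WT and cKO BMDMs of sets 1 to 3 and in the 3 double knockouts, with a point per library and a bar at each group mean. WT levels of Aen lie near 10 CPM in sets 1 and 3 and at 19.1 to 24.7 CPM in set 2, and WT levels of Trp53inp1 are high in sets 1 and 3 and low in set 2.

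Of the remaining members, Eda2r was called lower in set 1, at 0.26, 0.563 and 0.197 CPM in the WT and 0.0328, 0.131 and 0.132 CPM in the cKO (log2 fold change -1.87, SE 0.68, edgeR adjusted p = 0.0346), a call that 4 of the 6 fits leaving out a library lost. The difference between sets 2 and 1 for Eda2r was 2.70 (SE 0.88, edgeR adjusted p = 0.032), and it too was lost in some of those fits, with adjusted p of up to 0.165. Such levels are a few counts per library. Zmat3 was 56.1 to 95.2 CPM in WT and 58.5 to 76.4 CPM in cKO libraries of the sets and was called in none of them. Its 95% intervals were -0.43 to 0.12, -0.51 to 0.03 and -0.46 to 0.09 in sets 1 to 3. Phlda3 (9.28 to 17.2 CPM in WT and 8.39 to 18 CPM in cKO) and Ccng1 (124 to 184 and 143 to 181 CPM) were called in no set either.

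Between sets 3 and 1, no member and none of 18083 genes differed in the genotype effect, with 289 genes at an unadjusted p under 0.05 in edgeR. Same-numbered WT libraries of sets 1 and 3 deviated from their group means together, at correlations over genes of 0.39, 0.32 and 0.14. For same-numbered cKO libraries of these sets the correlations were 0.24, -0.01 and 0.14. Whether the sets are independent was not tested. Granulocyte markers were 60.4 to 113.4 CPM in the WT and 197.7 to 283 CPM in the cKO of set 1, 102.4 to 177.6 and 151.3 to 170.5 CPM in set 2, and 67.8 to 122.4 and 195.6 to 320.7 CPM in set 3, apart in sets 1 and 3 and overlapping in set 2. Dendritic cell markers were 2.86 to 4.72 CPM in the WT and 8.99 to 12.1 CPM in the cKO of set 1, 1.31 to 1.99 and 3.93 to 4.71 CPM in set 2, and 3.47 to 4.04 and 8.23 to 12.8 CPM in set 3. B cell markers were 2.53 to 6.8 and 7.24 to 8.72 CPM in set 1, 3.71 to 5.15 and 10.6 to 13.5 CPM in set 2, and 2.65 to 5.02 and 5.45 to 10.4 CPM in set 3. Both of these lists, and mast cell and basophil markers, were higher in every cKO library of each set, and epithelial markers were lower. The part of these cells in the results was not tested.

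Of the 30 further p53 targets, 7 rose and 6 fell in set 1 (34.6% of all genes called), 6 rose and 6 fell in set 2 (21.9%), and 8 rose and 8 fell in set 3 (35.9%). Pmaip1 rose in all 3 sets, at log2 fold changes of 1.55, 1.24 and 1.41, and Ephx1 fell, at -2.27, -1.29 and -2.38. The kinase gene Plk3 rose in sets 1 and 3 (log2 fold changes of 1.56 and 1.49), and Dram1 fell in sets 1 and 2 (-1.54 and -1.24). Only the 2 genes with the largest change in each direction were named per set. A gene not named for a set, such as Dram1 in set 3 or Plk3 in set 2, is therefore not shown to be unchanged there. Cdc20, an activator of mitotic exit and a DREAM target, rose in set 2 (log2 fold change 1.12, SE 0.23, edgeR adjusted p = 0.0009), and Btg2, which restrains proliferation, fell in set 3 although its libraries overlapped (log2 fold change -1.76, SE 0.65, edgeR adjusted p = 0.0354).

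The double knockouts were compared with the mean of the 3 cKO sets, because the labels do not say which set was grown with which, so the second knockout and the batch cannot be told apart. These 3 comparisons share the cKO libraries. Tmem173 (Sting) was 6.1, 5.01 and 5.44 CPM in H3.3cKO:StingKO and 68.2 to 91.6 CPM in the cKO, and Irf7 was 109, 112 and 98.3 CPM in H3.3cKO:Irf7KO and 249 to 470.2 CPM in the cKO. Mavs was 37.5, 37.9 and 37.2 CPM in H3.3cKO:MavsKO, within the 36 to 51.6 CPM of the cKO, so its transcript level does not mark that knockout. In H3.3cKO:Irf7KO the H3.3 genes were lower than in the cKO as well, with log2 fold changes of -0.91 for H3f3a and -0.73 for H3f3b.

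In H3.3cKO:StingKO, 5 of 8 members were called, where 36.4% of genes were. Phlda3 was 21.3, 21.2 and 22.7 CPM, against 8.39 to 18 CPM in the cKO (log2 fold change 0.72, SE 0.15, edgeR adjusted p = 0.000763), above every cKO library. Eda2r (log2 fold change 1.81, SE 0.38, edgeR adjusted p = 0.00071), Trp53inp1 (log2 fold change 0.40, SE 0.12, edgeR adjusted p = 0.00964) and Zmat3 (log2 fold change 0.30, SE 0.11, edgeR adjusted p = 0.0314) were higher too. Mdm2 was lower, at 113, 151 and 149 CPM against 149.6 to 217 CPM (log2 fold change -0.32, SE 0.10, edgeR adjusted p = 0.0171). Of the 12 fits that left out a library, 5 kept the call of Zmat3. Against cKO set 1 alone, the set that H3.3cKO:StingKO follows in the sample order, 2 members were called (Phlda3 and Eda2r), and against set 3 alone 3. Against set 1 alone the edgeR adjusted p was 0.38 for Mdm2, 0.211 for Zmat3 and 0.187 for Trp53inp1. Stromal markers were 162.3 to 199.5 CPM in H3.3cKO:StingKO, above the 22.9 to 69 CPM of the cKO, and their part in the result was not tested.

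In H3.3cKO:MavsKO, Eda2r was called, at 1.28, 0.611 and 0.615 CPM against 0.0328 to 0.392 CPM in the cKO (log2 fold change 2.07, SE 0.34, edgeR adjusted p = 0.000225), where 9.32% of genes were called. Against cKO set 2 alone, the set that H3.3cKO:MavsKO follows in the sample order, the edgeR adjusted p of Eda2r was 0.0565, and no member was called. Stromal markers were 80.2 to 287.8 CPM there, above every cKO library, and granulocyte markers 57.6 to 118.6 CPM, below every cKO library, and their part was not tested. Mdm2 was 204, 223 and 209 CPM (log2 fold change 0.31, SE 0.10, edgeR adjusted p = 0.0502). In H3.3cKO:Irf7KO, Zmat3 was called, at 98.9, 78.5 and 89.7 CPM against 58.5 to 76.4 CPM in the cKO, above every cKO library (log2 fold change 0.48, SE 0.11, edgeR adjusted p = 0.004), where 10.6% of genes were called. That call was lost without H3.3cKO:Irf7KO replicate 1 (edgeR adjusted p = 0.056) and against cKO set 3 alone (0.0665), which leaves 0 members. Granulocyte markers were 84.7 to 115.3 CPM there, below every cKO library, and their part was not tested. Cdkn1a and Aen were called in none of the 3 double knockouts. Aen was 21.4 to 27.1 CPM in them and 21.1 to 26.1 CPM in the cKO.

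The members did not follow a single pattern over the 18 libraries of the time course, which share culture days and genotypes. As a description, the log2 levels of Cdkn1a correlated with those of Mdm2 (r = 0.88) and Aen (r = 0.87), and those of Mdm2 with Ccng1 (r = 0.84). Trp53inp1 and Aen were at r = -0.53. Over the 11247 genes whose log2 CPM averaged 1 or more, the genes most like Cdkn1a were Letm1 (0.96), Slc3a2 (0.96), Ykt6 (0.95), Sema3c (0.94) and Piezo1 (0.94). Perp had 3 counts or fewer in every library of the time course other than the cKO libraries of day 3, so its correlations there describe the day 3 rise again and are not given.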

How the data were processed

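RNA of 81 samples was sequenced, after depletion of ribosomal RNA for BMDMs (for peritoneal macrophages the methods name a low-input kit with amplification, the labels the depletion kit). According to the methods and the labels, the authors trimmed reads with cutadapt and aligned them to mm10 with STAR, whose versions are not given in the sources used here, and deposited for each library the raw counts of reads per gene that STAR writes. The unstranded counts were used, since their total per gene does not depend on the strand setting. The methods also name RSEM and SARTools, whose output was not used here. Rows that name no gene were left out. Tables of different annotations were joined by gene identifier (55450 genes in the time course, 54146 in the day 8, peritoneal and antibody experiments, and 54079 in the BMDM sets, of which 52480 had the same version).

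Each experiment was fitted as 1 group-means model with edgeR 4.0.16 in R 4.3.3 (TMM scaling, filterByExpr with a count of 10 and a total of 15, quasi-likelihood test, Benjamini-Hochberg adjustment over all genes tested, called at an adjusted p under 0.05). This left 15955 genes in the time course, 13075 on day 8, 12361 in peritoneal macrophages, 17191 in the antibody experiment and 18083 in the BMDM sets. The SE is the log2 fold change divided by the square root of the F value. CPM values are TMM-scaled within an experiment. The median depth was 17606551 counts in the time course, 8749534 on day 8, 16311451 in peritoneal macrophages, 17643924 in the antibody experiment and 31118816 in the BMDM sets. The scripts were tested on simulated counts.

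The 9 members, the 4 lists of other p53 pathway genes and the lists of cell type markers were chosen with earlier results of these data known. Named were all members, Trp53, the targeted genes, and from the pathway lists the 2 genes called higher and the 2 called lower with the largest change in each comparison of cKO with WT other than day 3, among genes whose log2 CPM averaged 1 or more. For Cdkn1a the 5 genes with the highest correlation were named; for Perp, to which the same rule applied, they only restated the day 3 rise and were left out. Genes outside that rule (Jup, Cdh1, Dsp, Krt19, Pkp1, Msln, Cdk1 and, among relatives, Ccng2, Cdkn1b, Phlda1 and Trp53inp2) were chosen after their values were seen. Alternatives were DESeq2 1.42.0, RLE scaling, other filters on low counts, strand-specific counts, the replicate block, fits of only the groups compared and fits without each library, and, chosen after seeing the data, dispersions from estimateDisp and the differences of the genotype effect between BMDM sets and between no and control antibody. Replicate numbers were checked by correlating deviations from the group means over genes. Of the groups compared, all 3 same-numbered pairs correlated over 0.1 for WT and cKO on day 3 (0.13 to 0.42), on day 7 (0.15 to 0.47) and in peritoneal macrophages (0.14 to 0.19), for days 5 and 7 in the cKO (0.23 to 0.49), for untreated and IFNγ-treated WT cells (0.33 to 0.45) and for no and control antibody in the WT (0.15 to 0.28). In the other comparisons not every same-numbered pair did so. The labels name no animals, so whether equal numbers mark paired samples is not known. Of pairs of libraries within a group, the lowest chi-square per degree of freedom of their counts was 3.67, so no library was counted as a repeat of another. The 2 libraries left out of groups were cKO day 8 samples whose title and library name disagree on IFNγ.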

Additional observations from a re-analysis of the deposited data

Results flagged for a closer look

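In 5 results the genotype effect on a member differed between BMDM sets by a test of the difference itself, on the log2 scale and with edgeR's quasi-likelihood test adjusted over 18083 genes, of which 8.29% were called more positive and 11.7% more negative in set 2 than in set 1, and 9.46% and 10.8% likewise against set 3. For Trp53inp1 the cKO effect in set 2 exceeded that in set 1 by 1.36 (SE 0.21, adjusted p = 8.49e-05) and that in set 3 by 1.55 (adjusted p = 1.58e-05), and in each fit without a library both differences were called. For Aen the effect in set 2 differed by -0.92 from that in set 1 (adjusted p = 0.000352) and by -1.06 from that in set 3 (adjusted p = 7.36e-05), again called in each fit without a library. For Eda2r the effect in set 2 exceeded that in set 1 by 2.70 (SE 0.88, adjusted p = 0.032), and this was called in 6 of 12 fits without a library. The 3 libraries of each group all followed these directions for Trp53inp1, whose cKO libraries lay below every WT library in sets 1 and 3 and above every WT library in set 2. The labels tell sets 1 to 3 apart by the suffix of the library name and the spelling of the replicate in the title and name no batch, so set and batch cannot be told apart. The differences from set 1 and from set 3 share the libraries of set 2, and whether sets 1 and 3 are independent was not tested.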

How the results depend on the processing

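No called value of a member changed sign under any alternative, while some values that were not called did. Of the alternative values of the counts of members called and of the day 3 median, 313 stayed within 1.5 times the reported count, or within the spread of the median, and 73 did not. Counts of called members changed as follows. With DESeq2 they were 2 on day 5 (1 in edgeR), 1 between days 7 and 5 in the WT (0), 1 with control antibody (0), 2 with the IFNAR1 antibody (0), 6 for control antibody against none in the WT (3) and 2 in H3.3cKO:MavsKO (1). With the call also requiring a log2 fold change of 1 or more they were 0 on day 5, 0 for IFNγ in the WT, 5 with no antibody, 2, 0 and 2 in sets 1, 2 and 3, 1 in H3.3cKO:StingKO and 0 in H3.3cKO:Irf7KO. In fits of only the groups compared they were 1 on day 8, 0 for IFNγ in the cKO, 5 with control antibody, 0 for IFNAR1 against control antibody in the WT, 4 in set 2 and 2 in H3.3cKO:MavsKO. Placing the 2 conflicting libraries by title gave 0 for IFNγ in the WT and 0 in the cKO, and by library name 4 in the cKO and 1 for cKO against WT with IFNγ. Against a single cKO set, H3.3cKO:StingKO had 2 (set 1) and 3 (set 3), H3.3cKO:MavsKO 2, 0 and 3 (sets 1 to 3) and H3.3cKO:Irf7KO 2 (set 2) and 0 (set 3). No filter on low counts gave 1 with control antibody, strand-specific counts 1 for IFNAR1 against control antibody in the WT, estimateDisp 1 for the same, and genes of the same identifier version 2 in H3.3cKO:MavsKO. The cause of these changes was not tested.

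Every same-numbered pair of libraries correlated over 0.1 in 5 tested comparisons (day 7, days 7 and 5 in the cKO, peritoneal macrophages, and in the WT IFNγ and control antibody against none). In the first 3 of these the replicate block called 0 members, as did the fit without it, for IFNγ it called 2 (3 without, losing Mdm2) and for control antibody 2 (3, losing Trp53inp1), and it changed no other call in these comparisons. Over all groups, whether compared or not, same-numbered libraries correlated over 0.1 in 27 of 45 pairs of the time course, 3 of 13 on day 8, 18 of 45 in the antibody experiment and 12 of 108 in the sets. With the replicate block the count was 1 with control antibody (0 without the block) and 1 for IFNAR1 against control antibody in the WT (2), and with the replicate block within genotype 0 for the latter, 3 for the same comparison in the cKO (0) and 0 for control antibody against none in the WT (3). The block moved no other count by over 1.5 times.

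Without 1 library, the counts ranged from 0 to 2 on days 5 and 7, 0 to 0 on day 8, 0 to 2 with IFNγ, 0 to 0 in peritoneal macrophages, 3 to 8 with no antibody, 0 to 0 with control antibody, 0 to 2 with IFNAR1 antibody, 4 to 5, 0 to 1 and 4 to 4 in sets 1, 2 and 3. They ranged from 0 to 3 (WT) and 0 to 0 (cKO) between days 7 and 5, 1 to 3 (WT) and 2 to 3 (cKO) for IFNγ, 0 to 5 (WT) and 0 to 0 (cKO) for IFNAR1 against control antibody, 0 to 8 (WT) and 0 to 0 (cKO) for control antibody against none, and 3 to 5, 1 to 1 and 0 to 1 in H3.3cKO:StingKO, H3.3cKO:MavsKO and H3.3cKO:Irf7KO. The day 3 median ranged from -0.33 to -0.11. With 2 or 3 libraries a group, and with Perp at 3 counts or fewer in 71 libraries, small changes of Perp were not detectable at this depth.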

Other observations

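Relatives of the members outside the p53 response also differed between BMDM sets. Ccng2, the relative of Ccng1 that is linked to cell cycle exit, was 70.6, 65.5 and 65.9 CPM in the WT and 29.2, 30.3 and 26.6 CPM in the cKO of set 1 (log2 fold change -1.23, SE 0.09, edgeR adjusted p = 8.88e-10). In set 2 it was 18.9, 16.7 and 18.7 CPM in the WT and 25.1, 27 and 24.1 CPM in the cKO (log2 fold change 0.49, SE 0.09, edgeR adjusted p = 0.000359), and in set 3 it fell again (log2 fold change -1.28, edgeR adjusted p = 3.63e-10). The effect on Ccng2 differed between sets 2 and 1 by 1.72 (SE 0.13, edgeR adjusted p = 8.15e-09). The WT levels of Ccng2 were 65.5 to 70.6 CPM in set 1 and 16.7 to 18.9 CPM in set 2, beside cKO levels of 24.1 to 30.8 CPM in all 3 sets. The cause of this was not tested.

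Cdkn1b, which encodes the cell cycle inhibitor p27 and is a relative of Cdkn1a, had the same order. It fell in set 1 (log2 fold change -0.76, SE 0.11, edgeR adjusted p = 6.12e-06) and set 3 (-0.99, edgeR adjusted p = 1.59e-07) and rose in set 2 (0.31, SE 0.11, edgeR adjusted p = 0.0444). Phlda1, a relative of Phlda3, went the other way, rising in set 1 (log2 fold change 1.76, SE 0.26, edgeR adjusted p = 8.8e-06) and set 3 (1.73, edgeR adjusted p = 4.59e-05) and falling in set 2 (-1.12, SE 0.19, edgeR adjusted p = 7.22e-05). Trp53inp2, a relative of Trp53inp1 in autophagy, fell in all 3 sets, at log2 fold changes of -0.74, -0.57 and -0.86. Of the 9 relatives listed, 6 could be tested in the sets, and 1 rose and 3 fell in set 1, 2 rose and 3 fell in set 2, and 1 rose and 3 fell in set 3. Over all genes, 34.6%, 21.9% and 35.9% were called in sets 1, 2 and 3. In the antibody experiment 1 of the 6 fell with no antibody, 1 with control antibody and 0 with the IFNAR1 antibody. The shares of all genes called there were 8.16%, 5.11% and 0.698%.

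Both cKO day 8 libraries whose title and library name disagree on IFNγ entered no group. In the first, Cdkn1a was 212.5, Mdm2 102.9, Ccng1 155.8, Zmat3 62.6, Trp53inp1 34.7, Phlda3 8.58, Eda2r 0.49, Aen 20.7, Perp 0.163 and Irf7 182.1 CPM. In the second, Cdkn1a was 339.1, Mdm2 140.0, Ccng1 126.8, Zmat3 31.8, Trp53inp1 26, Phlda3 2.15, Eda2r 0.322, Aen 10.1, Perp 0 and Irf7 2015 CPM.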
